A study of Homo sapiens with 6 samples.

Results

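SW480 cells, a line established from a human colorectal adenocarcinoma and labelled wild type, were kept for 72 h on a soft (2 kPa) or a stiff (25 kPa) hydrogel, with 3 RNA sequencing libraries at each stiffness. No other treatment separated the groups, and each library came from a well of 1 cell line, so the p-values measure the spread between wells. The genes described here are components and targets of the Wnt pathway, taken by a rule on gene symbols. The symbols were those beginning with WNT, FZD, DKK and a digit, DVL, AXIN, NKD, LGR, TCF7, CSNK1, TLE and a digit or PORCN, together with APC, CTNNB1, LEF1, LRP5, LRP6, RNF43, ZNRF3, SP5, ASCL2, APCDD1, GSK3A, GSK3B and BCL9. Of the 8529 genes in the deposited table, 38 met this rule. LEF1, LGR5, LRP5, TCF7L2, ZNRF3, GSK3B, BCL9, PORCN and the TLE genes had no row in the table and were not analysed here.

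Wnt ligands are secreted proteins that carry a lipid and bind Frizzled receptors together with LRP5 or LRP6. Without the ligand, a cytoplasmic complex of APC, AXIN, GSK3 and casein kinase 1 marks β-catenin for degradation, and with it β-catenin enters the nucleus and acts with TCF and LEF factors. The pathway maintains the stem cells of the intestinal crypt, and many of its targets, such as AXIN2, NKD1, RNF43 and APCDD1, feed back on the signal. Colorectal cancers commonly lose APC, and SW480 carries a truncated form of it, so β-catenin signalling is high in this line without added ligand.

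Expression is given as FPKM, fragment numbers scaled for transcript length and for the size of the library, so that levels can be set side by side between genes. The FPKM of all genes summed to between 201030 and 263028 in the 6 libraries. The values do not carry read numbers, so the depth behind them is unknown. The libraries carried colorectal epithelial markers, with 8 of 12 listed in the table and a summed FPKM of 3690 to 4862, nearly all of it from KRT18 and KRT19. Of 6 fibroblast markers, 2 were listed with a summed FPKM of at most 1.05, and of 4 endothelial markers 0 were listed. The epithelial markers KRT8, LGALS4, GPA33 and CEACAM5 were not listed either. How genes were chosen for the table is not given, so an unlisted marker cannot be taken as unexpressed. Of 5 leukocyte markers 1 was listed, CD14, at 0.70 to 1.83 FPKM on the soft gel and 0.17 to 0.82 FPKM on the stiff gel, and its part in the results was not tested. The intestinal markers CDX1 and KRT20 were close to the lower end of the table, at no more than 0.24 FPKM, and CDX2 had 0.07 to 0.79 FPKM. The summed FPKM of the epithelial list therefore does not speak for these intestinal markers.

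Among the 38 genes the highest levels were those of the inhibitor APCDD1, with a mean of 258.7 FPKM over the 6 libraries, the ligand WNT6 at 33.9 FPKM, the feedback gene NKD1 at 32.6 FPKM and CTNNB1 at 21.7 FPKM. On the stiff gel ASCL2 and WNT10A stood lower than on the soft gel by factors of 1.98 and 3.15, with SP5, APCDD1 and DKK3 also lower and DKK1 higher. Of the 10 receptor genes and the 7 genes grouped with the destruction complex, 0 had an unadjusted p under 0.05, where 10.2% of all genes did. In groups this small a count of 0 does not show that the genes were unchanged. Of the 38 genes, 9 had a mean of at least 10 FPKM and 11 a mean under 1 FPKM. The levels ran from 0.152 FPKM for WNT4 to APCDD1, the highest of the set, as the plot of levels by role shows.

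**Figure D1:**
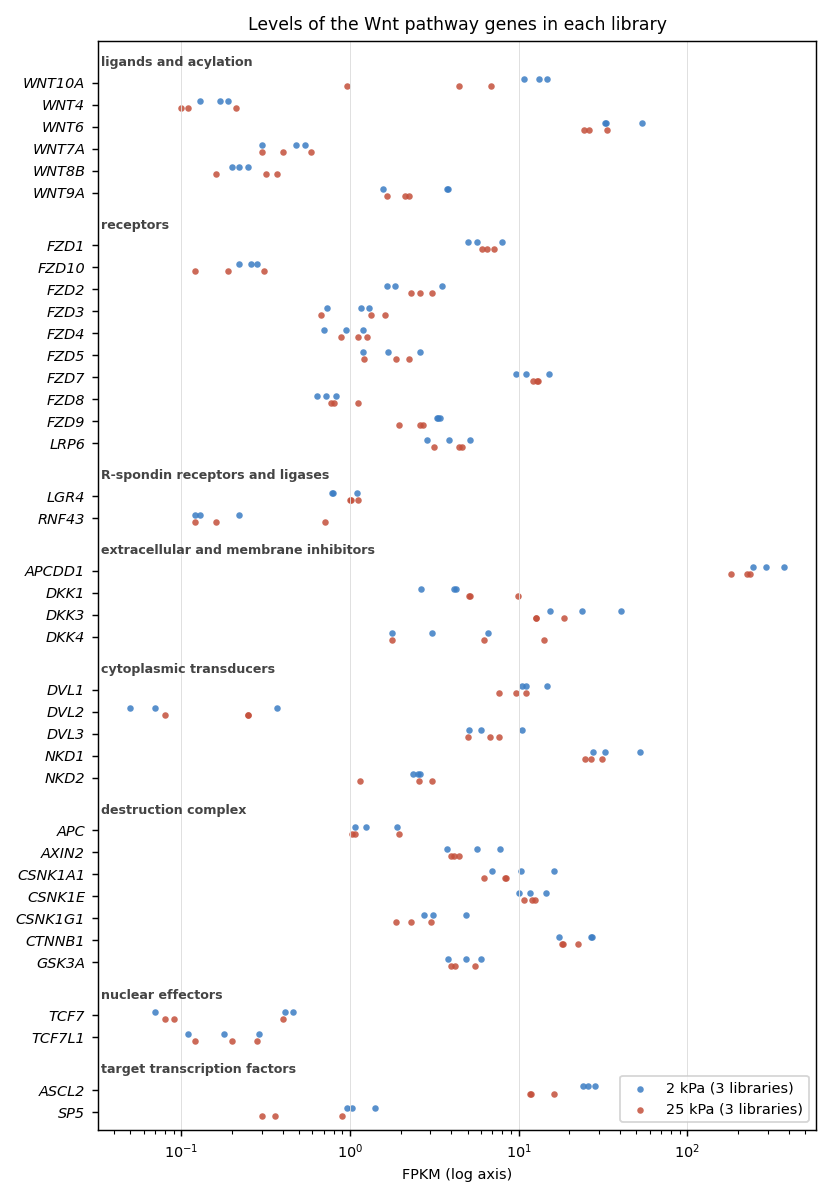
FPKM of the 38 Wnt pathway genes on a log axis, grouped by role, with 1 point for each of the 3 libraries at 2 kPa (blue) and 25 kPa (red). APCDD1 lies at 180.52 FPKM or above in every library, and the points of ASCL2 and WNT10A at 25 kPa lie to the left of those at 2 kPa.

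The difference between stiff and soft gels was tested by limma on log2(FPKM + 1) for each of the 8529 genes, with Benjamini-Hochberg adjustment. On this scale the fold change of a weakly expressed gene is smaller than the ratio of its FPKM. By limma, 0 of the 38 genes passed an adjusted p under 0.05, where 0.117% of all genes did, and ASCL2 came closest (limma adjusted p = 0.0759). At an unadjusted p under 0.05, 6 of the 38 (15.8%) passed, against 10.2% of all genes. Of these, 5 were lower at 25 kPa, where 3.19% of all genes passed in that direction, and 1 was higher, where 6.96% did. Soft and stiff wells did not overlap for 6 of the 38 genes (15.8%), a share near that of all genes (16.0%), with 5 of the 6 lower (4.78% of all genes) and 1 higher (11.2%). Over the 38 genes the median log2 fold change was −0.05, with 14 above and 24 below 0. All 8529 genes together had a median of 0.05.

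The directions depended in part on the scaling between libraries. Of all genes at an unadjusted p under 0.05, 68.6% were higher at 25 kPa with the FPKM as deposited, 42.7% with library sums made equal, 51.1% with quantile normalisation and 49.9% with median centring. For the Wnt genes the split was 1 higher and 5 lower as deposited, 0 and 7 with equal sums, 1 and 6 with quantile normalisation and 1 and 7 with median centring. The gene lost with equal sums was DKK1 (log2 fold change 0.58, unadjusted p = 0.107). Without 25 kPa replicate 1, the number at an unadjusted p under 0.05 was 2, ASCL2 and WNT10A. In bulk RNA, a lower value in every cell and a smaller share of cells that express a gene cannot be told apart.

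**Figure D2:**
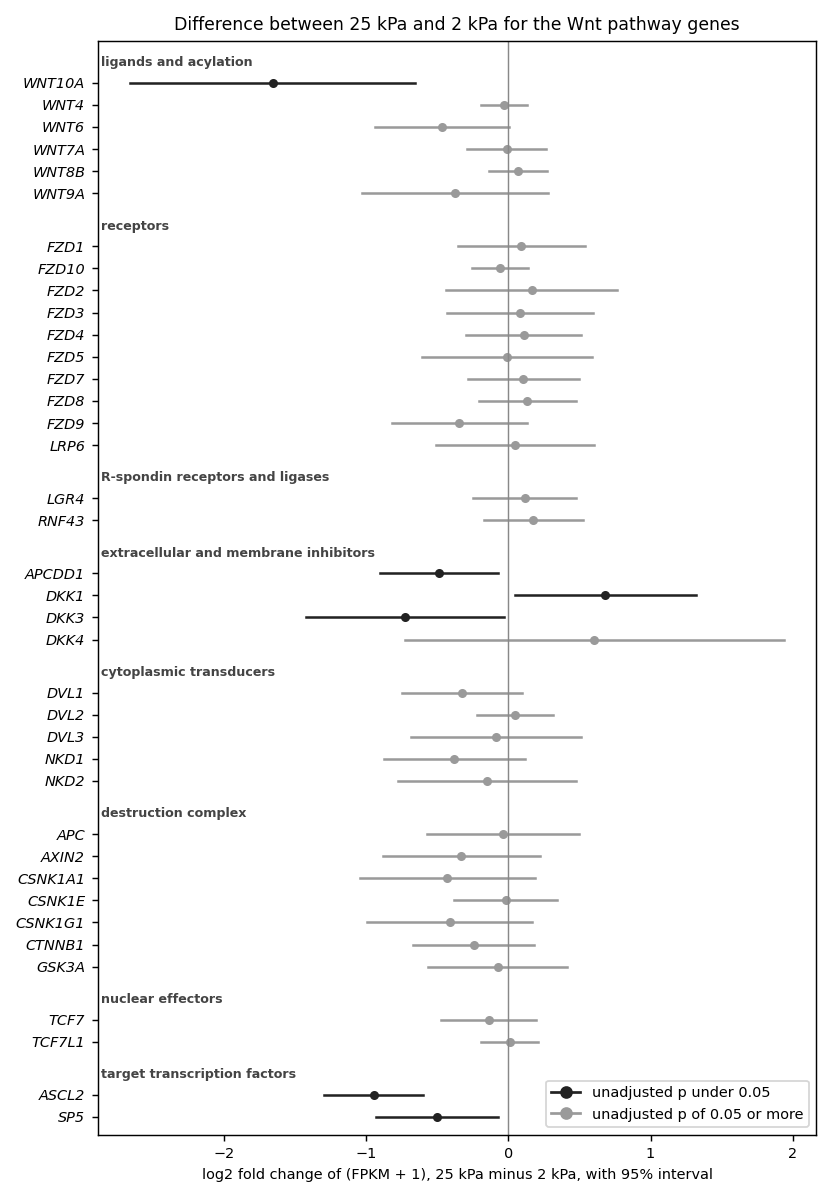
Log2 fold change of (FPKM + 1) at 25 kPa relative to 2 kPa for each of the 38 genes, with its 95% interval from limma (3 libraries against 3), grouped by role. The intervals of WNT10A, APCDD1, DKK3, ASCL2 and SP5 lie below 0, that of DKK1 lies above 0, and the other 32 cross 0.

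Among the ligands, 6 WNT genes were in the table, and WNT6 and WNT10A were the highest of them. WNT10A, a ligand of the canonical pathway, had 10.83, 14.76 and 13.14 FPKM on the soft gel against 4.44, 0.96 and 6.88 FPKM on the stiff gel. All 3 wells on the stiff gel were below all 3 on the soft gel, and the stiff wells varied more among themselves. The mean was 12.9 ± 1.98 FPKM (SD, n = 3) on the soft gel, and on the stiff gel it was 4.09 ± 2.98 FPKM (SD, n = 3). The log2 fold change of WNT10A was −1.66 (standard error 0.44, 95% interval −2.66 to −0.65), and it did not pass over all genes (limma adjusted p = 0.234, unadjusted p = 0.00479). This was the most negative log2 fold change of the 8529 genes, and over 15 settings WNT10A was in 1st place in 9 and in 14th place at the lowest. A filter on mean FPKM, no variance trend and the replicate block leave the log2 fold change unchanged. The 1st places under these settings repeat that of the main fit. Without 25 kPa replicate 2, the well with the lowest level, the log2 fold change was −1.08, with an unadjusted p = 0.00145.

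WNT6, whose gene is next to WNT10A on chromosome 2 with 0 protein-coding genes between them in RefSeq, had 32.42, 53.97 and 33.11 FPKM at 2 kPa and 24.44, 33.40 and 26.01 FPKM at 25 kPa. The groups overlapped, since 25 kPa replicate 2 was above the lower pair of soft wells. Its log2 fold change was −0.47 (standard error 0.21, 95% interval −0.94 to 0.003, limma adjusted p = 0.495). Without 2 kPa replicate 2, in which WNT6 was highest, it was −0.23, and with any other library left out it lay between −0.60 and −0.38. WNT9A ranged from 1.58 to 3.82 FPKM on the soft gel and from 1.66 to 2.24 FPKM on the stiff gel, with overlap. WNT4, WNT7A and WNT8B were at 0.10 to 0.59 FPKM in all libraries, with log2 fold changes between −0.03 and 0.07.

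Frizzled proteins are the seven-pass receptors of Wnt ligands, and 9 FZD genes were in the table. FZD7 was the highest, with 11.14, 15.09 and 9.59 FPKM at 2 kPa and 13.01, 12.24 and 12.88 FPKM at 25 kPa, followed by FZD1 at a mean of 6.41 FPKM over the 6 libraries. For FZD7 the stiff wells lay within the range of the soft ones, and its log2 fold change was 0.11 (95% interval −0.28 to 0.49). FZD9, at 2.89 FPKM, was the one receptor without overlap. It had 3.28, 3.33 and 3.42 FPKM at 2 kPa and 2.73, 2.61 and 1.96 FPKM at 25 kPa, close values on the soft gel and lower ones on the stiff gel. Its log2 fold change of −0.35 (standard error 0.21) also missed the unadjusted threshold (limma adjusted p = 0.632, unadjusted p = 0.133). FZD2, FZD3, FZD4, FZD5, FZD8 and FZD10 were between 0.12 and 3.54 FPKM in every library. LRP6, the co-receptor, had 3.88, 5.18 and 2.85 FPKM at 2 kPa and 4.65, 3.17 and 4.42 FPKM at 25 kPa, a log2 fold change of 0.05 (95% interval −0.51 to 0.60). Of the 10 receptor genes, 0 had an unadjusted p under 0.05, where 10.2% of all genes did. Their median log2 fold change was 0.09 with the FPKM as deposited and −0.02 with equal library sums.

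R-spondin receptors of the LGR family and the ubiquitin ligases RNF43 and ZNRF3 set how many Frizzled receptors stay on the cell surface. LGR4 had 0.79, 1.10 and 0.78 FPKM at 2 kPa and 1.01, 1.11 and 1.00 FPKM at 25 kPa. The highest soft well lay between the stiff ones, so the groups overlapped, and the log2 fold change was 0.11 (95% interval −0.25 to 0.48). RNF43 had 0.22, 0.13 and 0.12 FPKM at 2 kPa and 0.12, 0.71 and 0.16 FPKM at 25 kPa, so that its higher mean on the stiff gel came from 1 library, 25 kPa replicate 2. Without that library its log2 fold change was −0.02.

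Of the 4 inhibitors, 3 had an unadjusted p under 0.05 (10.2% of all genes), APCDD1 and DKK3 lower and DKK1 higher. Without 25 kPa replicate 1 these p were 0.112, 0.107 and 0.171. APCDD1 is a membrane glycoprotein that binds Wnt ligands and LRP5 and dampens the signal, and it is itself a target of β-catenin. It had 245.36, 373.34 and 291.58 FPKM at 2 kPa and 180.52, 234.20 and 227.43 FPKM at 25 kPa. The groups did not overlap, although 2 kPa replicate 1 and 25 kPa replicate 2 were close to each other. Soft wells averaged 303 ± 64.8 FPKM (SD, n = 3), stiff wells 214 ± 29.2 FPKM (SD, n = 3), and the log2 fold change was −0.49 (standard error 0.18, limma adjusted p = 0.405). Without 2 kPa replicate 2 it was −0.33.

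DKK1, a secreted antagonist that binds LRP5 and LRP6, went the other way. It had 4.17, 4.25 and 2.64 FPKM at 2 kPa and 9.92, 5.07 and 5.13 FPKM at 25 kPa, all stiff wells above all soft ones. Its log2 fold change was 0.68 (standard error 0.28, limma adjusted p = 0.453). Without 25 kPa replicate 1, the well with the highest level, it was 0.40. DKK3, a divergent family member whose action on Wnt signalling is less settled, had 15.39, 40.43 and 23.65 FPKM at 2 kPa and 12.73, 12.71 and 18.50 FPKM at 25 kPa. For DKK3 the groups overlapped, as 25 kPa replicate 3 was above 2 kPa replicate 1, and the log2 fold change was −0.73 (standard error 0.31, limma adjusted p = 0.460). Without 2 kPa replicate 2 it was −0.38, and without 2 kPa replicate 1 it was −1.05 (unadjusted p = 0.00353). DKK4, an antagonist induced by β-catenin, ranged from 1.77 to 6.59 FPKM at 2 kPa and from 1.77 to 14.07 FPKM at 25 kPa. Its 95% interval, from −0.73 to 1.94 on the log2 scale, was the widest of the 38 genes.

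**Figure D3:**
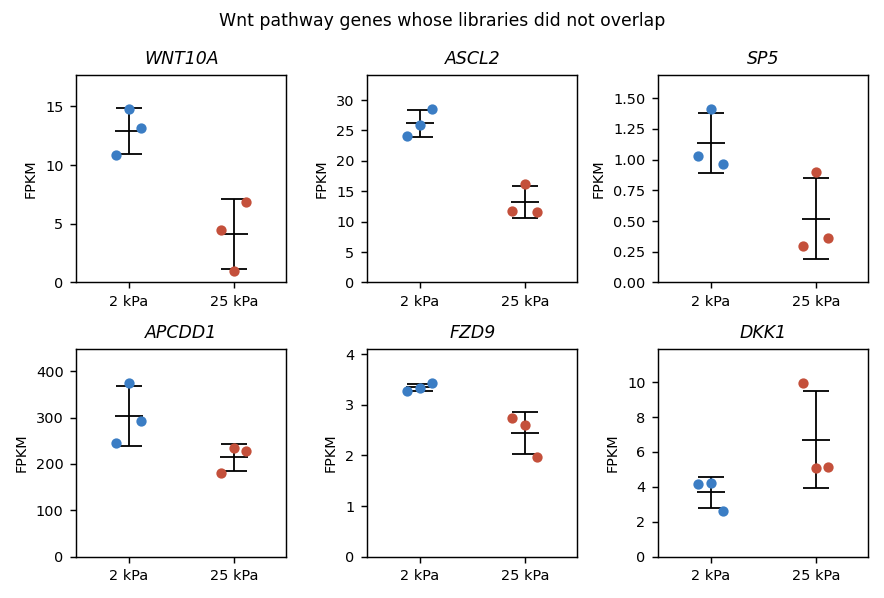
FPKM in each library (points) of the 6 Wnt pathway genes for which the 3 libraries at 2 kPa and the 3 at 25 kPa did not overlap, with the mean and SD of each group (bars). ASCL2 shows a wide gap between the groups, and in DKK1 the stiff wells lie above the soft ones.

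Dishevelled proteins relay the signal from the receptor, and the NKD proteins bind Dishevelled and restrain it. NKD1, a feedback target in colorectal cells, had 27.78, 52.36 and 32.37 FPKM at 2 kPa and 24.88, 26.70 and 31.43 FPKM at 25 kPa. The groups overlapped, and the log2 fold change was −0.38 (standard error 0.22, 95% interval −0.87 to 0.11, unadjusted p = 0.115). Without 2 kPa replicate 2 the log2 fold change of NKD1 was −0.12, and without 2 kPa replicate 1 it was −0.56 (unadjusted p = 0.0301). NKD2 had a mean of 2.38 FPKM over the 6 libraries. DVL1 was the highest of the 3 DVL genes at 10.8 FPKM, with DVL3 at 6.83 FPKM and DVL2 at 0.178 FPKM, and their log2 fold changes lay between −0.33 and 0.04. Of these 5 cytoplasmic genes, 0 had an unadjusted p under 0.05, where 10.2% of all genes did.

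In the group of the destruction complex and its substrate, 7 of 7 log2 fold changes were below 0, where 3448 of all 8529 genes were. They ran from −0.43 for CSNK1A1 to −0.02 for CSNK1E, and 0 had an unadjusted p under 0.05 (10.2% of all genes). The CSNK1 genes were placed in this group by symbol alone, so the count is not one of proven parts of the complex. CTNNB1, which encodes β-catenin, had 17.25, 26.76 and 27.34 FPKM at 2 kPa and 18.41, 18.00 and 22.46 FPKM at 25 kPa. The lowest soft well was below all stiff wells, and the log2 fold change of −0.24 had a 95% interval from −0.67 to 0.18 (limma adjusted p = 0.735). For CTNNB1 it was −0.45 without 2 kPa replicate 1 (unadjusted p = 0.0190), −0.15 without 2 kPa replicate 2 and −0.13 without 2 kPa replicate 3. The FPKM measure its RNA, and the level or place of the protein was not measured in these libraries. APC had 1.07, 1.89 and 1.25 FPKM at 2 kPa and 1.03, 1.07 and 1.95 FPKM at 25 kPa, a log2 fold change of −0.04 (95% interval −0.57 to 0.49). GSK3A, a kinase of the complex, had 4.91, 5.95 and 3.84 FPKM at 2 kPa and 5.54, 3.97 and 4.22 FPKM at 25 kPa, a log2 fold change of −0.08 (95% interval −0.57 to 0.42). Both genes spread as widely within a stiffness as between them, and the sign changed in 3 of 14 refits for APC and in 2 of 14 for GSK3A. CSNK1A1, which primes β-catenin for GSK3, ranged from 6.95 to 16.31 FPKM on the soft gel and from 6.24 to 8.47 FPKM on the stiff gel, with overlap.

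AXIN2, the most widely used readout of β-catenin activity, had 3.78, 7.73 and 5.69 FPKM at 2 kPa and 4.44, 4.00 and 4.16 FPKM at 25 kPa. The soft wells spread on both sides of the stiff ones, which lay close together. Soft wells averaged 5.73 ± 1.98 FPKM (SD, n = 3), stiff wells 4.20 ± 0.223 FPKM (SD, n = 3), and the log2 fold change was −0.33 (standard error 0.24, 95% interval −0.88 to 0.22, limma adjusted p = 0.715). Leaving out 2 kPa replicate 2 gave −0.12 for AXIN2, and leaving out 2 kPa replicate 1 gave −0.56 (unadjusted p = 0.0430).

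The nuclear effectors in the table, TCF7 and TCF7L1, were low. LEF1 and TCF7L2 had no row in it, so the level of nuclear effectors as a class cannot be read from these genes. TCF7 had 0.07, 0.41 and 0.46 FPKM at 2 kPa and 0.09, 0.40 and 0.08 FPKM at 25 kPa. It was near the lower end in 1 soft and 2 stiff wells, so the 2 groups overlapped (log2 fold change −0.14, 95% interval −0.47 to 0.19). TCF7L1, mainly a repressor, ranged from 0.11 to 0.29 FPKM over the 6 libraries.

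The target transcription factors held the smallest p of the set. ASCL2, a basic helix-loop-helix factor that marks and maintains intestinal stem cells, had 24.05, 25.94 and 28.49 FPKM at 2 kPa and 11.78, 16.20 and 11.62 FPKM at 25 kPa. The wells on the stiff gel were all below those on the soft gel, by a gap larger than the range within either group. Soft wells averaged 26.2 ± 2.23 FPKM (SD, n = 3), stiff wells 13.2 ± 2.60 FPKM (SD, n = 3), and the log2 fold change was −0.95 (standard error 0.15, 95% interval −1.30 to −0.60). ASCL2 ranked 20th by p of all genes, and did not pass over all genes (limma adjusted p = 0.0759, unadjusted p = 0.000187). After rescaling the FPKM to equal library sums it did, with a log2 fold change of −1.07 and a limma adjusted p = 0.0408, while over all settings the adjusted p reached 0.3335. The log2 fold change of ASCL2 lay between −1.09 and −0.87 when any 1 library was left out.

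SP5, a zinc finger repressor and a direct target of β-catenin, was near 1 FPKM. It had 1.03, 1.41 and 0.96 FPKM at 2 kPa and 0.30, 0.90 and 0.36 FPKM at 25 kPa, with 25 kPa replicate 2 just below the lowest soft well. The log2 fold change was −0.50 (standard error 0.19, limma adjusted p = 0.404). Because of its low level, a pseudocount of 0.01 in place of 1 gave −1.26. With each library left out, the log2 fold change of SP5 lay between −0.68 and −0.40, with a limma unadjusted p from 0.0043 to 0.112.

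The promoter of SP5 is printed because it is the member promoter with the most TCF motif matches, and that of DKK1 because it is the other gene with both a match and an unadjusted p under 0.05. Promoters were taken from RefSeq (GRCh38.p14) by symbol, which gave 33 promoters for 28 of the 38 genes, and ASCL2, AXIN2, NKD1, DKK3, DKK4, LRP6, FZD2, FZD3, FZD7 and FZD10 had no entry. The 250 bases before each start were searched on both strands for CTTTGAT or CTTTGAA, forms of the core that TCF and LEF factors bind. Other forms, such as CTTTGTT, were not searched, and the DKK1 sequence below holds CTTTGTT unmarked. The matches and shares given here are for the searched forms alone. Of these 33 promoters, 3 held a match, those of SP5, DKK1 and CSNK1G1 (9.09%), against 3.75% of the 8736 promoters of genes in the table and 5.94% of all 35116 promoters of this length. SP5 held 3 matches without overlap between them. Of all 35116 promoters 7 held at least 3, and of the 8736 promoters of listed genes that of SP5 alone did. Each sequence below is on the forward strand, 5′ to 3′, ends at the base before the start, and carries the matches in capitals (TTCAAAG is CTTTGAA read on the other strand). SP5 lies at chr2:170715087-170715336 and DKK1 at chr10:52314031-52314280.
SP5: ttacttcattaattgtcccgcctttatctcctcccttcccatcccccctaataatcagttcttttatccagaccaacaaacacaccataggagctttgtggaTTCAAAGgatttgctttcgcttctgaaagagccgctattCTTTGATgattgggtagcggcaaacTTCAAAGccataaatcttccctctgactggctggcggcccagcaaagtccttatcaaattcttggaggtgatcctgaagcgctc
DKK1: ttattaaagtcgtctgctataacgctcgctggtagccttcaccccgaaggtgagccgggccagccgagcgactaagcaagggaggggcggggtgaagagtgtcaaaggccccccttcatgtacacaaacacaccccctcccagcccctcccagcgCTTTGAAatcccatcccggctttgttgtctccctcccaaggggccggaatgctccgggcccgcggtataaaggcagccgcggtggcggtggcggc
In SP5 the matches begin 148, 109 and 84 bases before the start, and in DKK1 95 bases before it. SP5 was lower and DKK1 higher at 25 kPa. The promoters of WNT10A and APCDD1 held 0 matches to the searched forms in this window. A match is a run of letters and was not tested for binding in these cells.

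Of 11 genes listed as feedback regulators or targets of the pathway in intestinal epithelium, 8 were in the table (AXIN2, NKD1, RNF43, SP5, ASCL2, TCF7, APCDD1 and DKK1). Their median log2 fold change was −0.36, with 6 below and 2 above 0, and 4 of the 8 had an unadjusted p under 0.05 (SP5, ASCL2 and APCDD1 lower, DKK1 higher), where 10.2% of all genes did. The other 30 genes, which include DKK4 with a log2 fold change of 0.60, had a median of −0.03, and 2 of the 30, WNT10A and DKK3, had an unadjusted p under 0.05. The median of the 8 was −0.12 without 2 kPa replicate 2 and −0.55 without 2 kPa replicate 1. Without 25 kPa replicate 1, only ASCL2 of the 8 kept a limma unadjusted p under 0.05, with 0.112 for SP5, 0.112 for APCDD1 and 0.171 for DKK1.

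The library 2 kPa replicate 2 stood apart in this pathway and over the whole table. Of the 38 genes, 18 (47.4%) had their highest value in it. Of all genes 26.8% did, against 9.5% to 19.0% in each other library, and it also had the lowest FPKM sum of the 6 libraries. The summed FPKM of the 38 genes was 710 in this library, 486 and 537 in the other soft wells and 394 to 440 in the stiff wells. Much of each sum was APCDD1 alone, with 373 FPKM in this library, 245 and 292 in the other soft wells and 181 to 234 in the stiff wells. NKD1, DKK3, WNT6, AXIN2 and APCDD1 were each highest in 2 kPa replicate 2. Their log2 fold changes without it were −0.12, −0.38, −0.23, −0.12 and −0.33. Across the 6 libraries, the genes most like AXIN2 by Pearson r of log2(FPKM + 1) were DKK3, NKD1, CTNNB1, APCDD1 and WNT6, with r from 0.92 down to 0.78 and Spearman rho from 0.31 to 0.89, as a description of 6 libraries that share the 2 groups. Without the 2 libraries farthest from the AXIN2 median, 2 kPa replicates 2 and 3, r ranged from −0.93 to 0.38 over 4 libraries in which AXIN2 itself spanned only 3.78 to 4.44 FPKM. Without 2 kPa replicate 2 alone, r was 0.87 for CTNNB1, 0.71 for DKK3, 0.52 for NKD1, 0.45 for APCDD1 and 0.10 for WNT6.

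**Figure D4:**
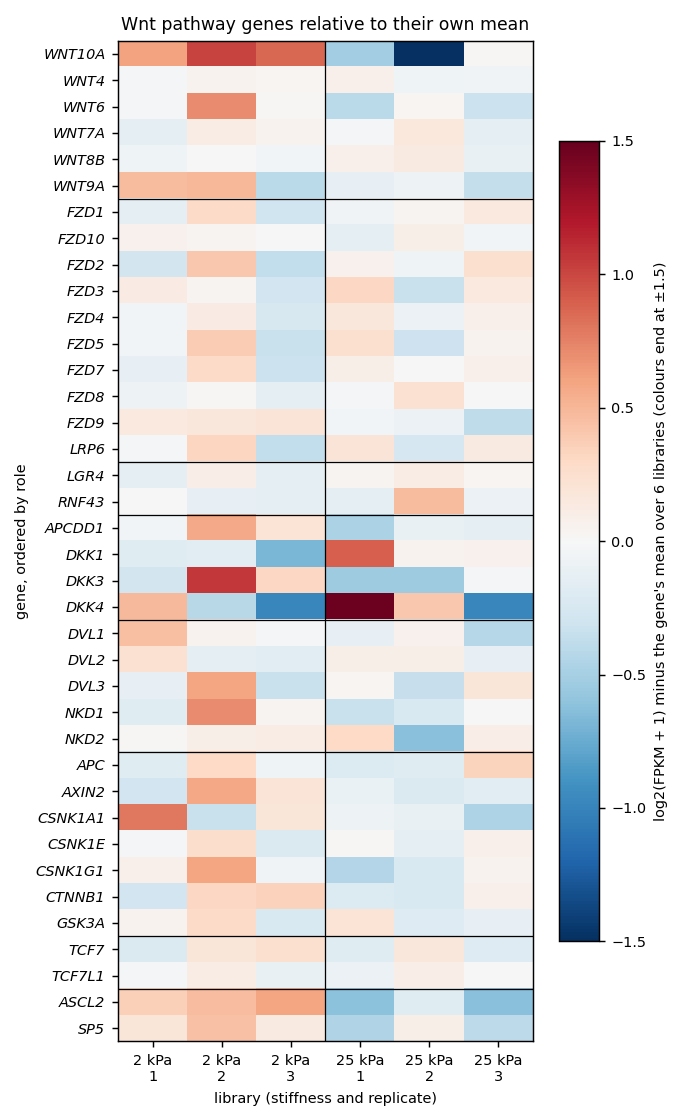
Log2(FPKM + 1) of each of the 38 genes minus its own mean over the 6 libraries, with libraries in columns and genes in rows ordered by role (lines separate roles and stiffness). The column of 2 kPa replicate 2 is red in NKD1, DKK3, WNT6 and AXIN2, whereas ASCL2 and WNT10A are red in all 3 soft wells.

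Further genes of the pathway, which the rule did not take, were counted from 2 lists. Of 45 other components, 23 were in the table, 0 passed the adjusted threshold by limma, and 5 had an unadjusted p under 0.05 (10.2% of all genes), with a median log2 fold change of 0.01 over the 23. The secreted antagonists NOTUM, an enzyme that removes the lipid of Wnt ligands, and SFRP5, which binds the ligands, were lower at 25 kPa by factors of 2.10 and 2.03, without overlap and close to the threshold (limma adjusted p = 0.0560 and 0.0565). WLS, the carrier that brings Wnt ligands to the cell surface, had 4.51, 3.92 and 6.52 FPKM at 2 kPa and 2.37, 2.66 and 3.56 FPKM at 25 kPa (log2 fold change −0.62, limma adjusted p = 0.426). Its stiff wells were all below the soft ones. Higher at 25 kPa were DAAM1, a formin of the planar polarity branch, at a log2 difference of 0.43 without overlap (limma adjusted p = 0.458), and SOSTDC1, with 0.34 (limma adjusted p = 0.426). SOSTDC1, an extracellular antagonist, was listed at no more than 0.75 FPKM, and its groups overlapped.

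Of 20 other targets in colorectal cells, 14 were in the table, and 1 (7.14%) had an unadjusted p under 0.05, where 10.2% of all genes did, with a median log2 fold change of 0.05, the same as that of all genes. This was FGF20, a growth factor gene driven by β-catenin, with 5.64, 8.57 and 5.83 FPKM at 2 kPa and 4.81, 4.12 and 2.39 FPKM at 25 kPa. The groups did not overlap, and its log2 fold change was −0.70 (standard error 0.26, limma adjusted p = 0.403). MYC and CCND1, the best known of these targets and named here after their values were seen, had log2 fold changes of −0.21 and 0.31 with overlap between the groups in both (limma adjusted p = 0.741 and 0.642).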

How the data were processed

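SW480 cells on 2 kPa or 25 kPa hydrogels were sequenced in triplicate. The authors deposited FPKM per gene symbol and library, without pooling, and 0 columns were left unassigned. The submitters' processing notes name HISAT, StringTie, Bowtie2 and RSEM and the build hg18, with no roles. The annotation and filters are not given in the sources used here. Small RNA purification is described in the methods as well. DESeq2, which the authors name, models counts and was not run.

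From the deposited FPKM, log2(FPKM + 1) was fitted by limma 3.58.1 in R 4.3.3 (lmFit, eBayes with a variance trend, two-sided) on all 8529 genes without a filter, and p-values were adjusted by Benjamini-Hochberg, with a threshold of 0.05. Libraries were grouped by their labels. The program was tested on simulated data. Python 3.11.15, pandas 2.3.3, numpy 2.4.6, scipy 1.17.1 and matplotlib 3.10.9 were used.

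The members and lists were chosen with earlier results of these data known. Values by library are given for members with an unadjusted p under 0.05 or without overlap, the feedback and target genes, APC, CTNNB1, LRP6 and GSK3A, and the highest gene of each role. Of the further lists, genes with an unadjusted p under 0.05, NOTUM and SFRP5 are named. Alternatives tried were a pseudocount of 0.1 or 0.01, a filter on mean FPKM (1 or more), equal library sums, quantile normalisation, median centring, no variance trend, the replicate number as a block and each library left out.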

Additional observations from a re-analysis of the deposited data

How the results depend on the processing

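With FPKM the depth is unknown, and 3 libraries a group limit the precision, as the intervals show. Each of 18 named genes was fitted again under 13 or 14 alternatives, 248 fits in all. The mean FPKM filter, the fit without a variance trend and the replicate block leave the log2 fold change unchanged, so its direction was fixed there. As 0 Wnt genes passed in the main fit, keeping the side of the adjusted threshold means not passing it. Of the 248 fits, 233 kept the direction and the side, and 1 passed (ASCL2 with equal library sums, log2 fold change −1.07). The other 14 had the other sign, with no unadjusted p under 0.05 in either fit, and the cause was not tested. The latter were APC without 2 kPa replicate 2 (0.10), 25 kPa replicate 1 (0.05) and 25 kPa replicate 2 (0.04), with each library left out giving −0.21 to 0.10, GSK3A without 2 kPa replicate 2 (0.050) and 25 kPa replicate 2 (0.002; −0.21 to 0.050), FZD7 with equal sums (−0.012) and without 2 kPa replicate 3 (−0.028, range to 0.27), RNF43 without 25 kPa replicate 2 (−0.020, range to 0.29), and LRP6 with equal sums (−0.055), quantile normalisation (−0.0037), median centring (−0.0067) and without 2 kPa replicate 3 (−0.13, range to 0.22), 25 kPa replicate 1 (−0.04) and 25 kPa replicate 3 (−0.01).

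With equal library sums, 1 Wnt gene passed the adjusted threshold, against 0 otherwise. The number at an unadjusted p under 0.05 was 2 to 9 with each library left out, and the median of the 8 feedback and target genes −0.55 to −0.12. Of the further pathway genes, 2 passed with a pseudocount of 0.1, a mean FPKM of at least 1 or equal sums, and 1 with a pseudocount of 0.01 or median centring. Over all 8529 genes, 10 passed, against 17 with a pseudocount of 0.1, 6 without a variance trend and 3 to 11 with each library left out. Replicate numbers were shared between the groups, and the labels do not say whether they pair the wells. The deviations of same-numbered libraries correlated at 0.11, −0.27 and −0.12, and those of differently numbered ones at −0.24 to 0.29. Deviations sum to 0 within each group, so these correlations depend on each other and cannot settle the pairing. With the replicate block, 3 genes of the whole table and 0 Wnt genes passed, and 7 of the 38 had an unadjusted p under 0.05. A median of 0.01 over the 38 genes was found without 2 kPa replicate 2.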

Other observations

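Among the epithelial markers used to check the labels, CDX2, a homeobox factor of intestinal identity, had 0.57, 0.79 and 0.67 FPKM at 2 kPa and 0.31, 0.27 and 0.07 FPKM at 25 kPa. All stiff wells were below all soft ones, and the log2 fold change was −0.47 (standard error 0.12, limma adjusted p = 0.224). At these levels the fold change on the log2(FPKM + 1) scale understates the ratio of the means. KRT19 had 1615, 1448 and 1623 FPKM at 2 kPa and 909, 1402 and 1084 FPKM at 25 kPa, also without overlap (log2 fold change −0.49, limma adjusted p = 0.537). EPCAM, VIL1, CDH1 and KRT18 overlapped between the groups. These genes were named after their values were seen.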
